A study of Mus musculus and Homo sapiens with 18 samples.

Results

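The integrated stress response genes described here are 38 mouse genes that encode the transcription factor ATF4, its partner factors and feedback regulators, and reported ATF4 targets in amino acid synthesis, folate metabolism, amino acid transport and secreted signalling. They were chosen by symbol from knowledge of the pathway, out of 55858 genes in the tables, with earlier results of these data known. The choice was thus not blind, and the shares of all genes beside the members' counts are a description. All 38 passed the filter on low counts in both comparisons. ATF4 is the transcription factor through which cells answer amino acid shortage, unfolded protein, double-stranded RNA and haem shortage. Each of these stresses activates a kinase that phosphorylates the initiation factor eIF2, which slows general translation while the ATF4 messenger RNA is translated more. ATF4 then binds DNA as a dimer, often with a C/EBP protein, at sites that join a C/EBP sequence to an ATF sequence, and raises genes for amino acid uptake and synthesis, redox defence and feedback on the response itself.

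The series compares bladder carcinoma libraries that differ in chemotherapy or in Igfbp5, the gene of an insulin-like growth factor binding protein. Relapsed tumours came from a genetically engineered mouse model (GEMM) treated with cisplatin and gemcitabine, and the control tumours came from the same kind of model, with a vehicle named in the treatment protocol; there were 3 libraries of each. Cells of CUUC-G, a mouse bladder line whose samples are also marked GEMM, carried either a guide against Igfbp5 (sgIgfbp5) or a scrambled guide (sgScr), again with 3 libraries each. The labels call the sgIgfbp5 cells a knockdown and the design text calls them a knockout, and neither gives the alleles or the driver of the tumour model, the age or number of animals, or whether a line was 1 clone. They also do not say whether replicates came from separate animals or cultures, so p-values here measure the spread between these libraries, which may be technical. The human line MGHU3 was not analysed here.

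The sequence that ATF4 and C/EBP proteins bind together is usually written TGATGNAA, and its positions in the members' promoters are shown first because the results below are read against them. RefSeq promoter windows (GRCm38.p6, 250 bases before the first transcribed base to 50 bases after it) were found for 33 of the 38 members. They were not found for Slc7a3, Slc1a5, Aldh1l2, Slc7a5 and Cth. The motif was present on either strand in 11 of the 33 members, or 33.3%, against 1219 of the 27025 genes with a window, or 4.51%. By window, it was present in 27.5% of 40 member windows against 3.97% of 32851 windows. The members include genes known for such sites, so this is a description of the list. A match is these letters only, and a window without them says nothing about binding further away. The 12 matches are given below in 30 bases of context on the strand of the gene, 5′ to 3′, with the motif or its reverse complement in capitals.
Slc7a11: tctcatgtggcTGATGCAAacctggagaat
Slc7a11: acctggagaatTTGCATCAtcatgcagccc
Atf3: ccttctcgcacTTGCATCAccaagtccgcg
Trib3: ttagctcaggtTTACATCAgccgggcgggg
Chac1: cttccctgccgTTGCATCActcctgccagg
Nupr1: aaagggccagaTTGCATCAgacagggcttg
Asns: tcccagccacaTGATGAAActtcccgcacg
Pycr1: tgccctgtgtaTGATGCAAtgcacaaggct
Pck2: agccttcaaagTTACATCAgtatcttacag
Slc1a4: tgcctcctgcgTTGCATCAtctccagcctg
Fgf21: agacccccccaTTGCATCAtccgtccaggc
Vldlr: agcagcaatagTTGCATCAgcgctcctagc

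Slc7a11, the cystine importer, was the only member whose window held a pair of matches. Their first bases lay 66 and 47 bases before the start, at chr3:50443672-50443679 and chr3:50443653-50443660 on the minus strand, in opposite orientations. The Atf3 match lay 110 bases before the start at chr1:191183436-191183443, the Fgf21 match 139 bases before it at chr7:45615622-45615629, the Asns match 23 bases before it at chr6:7693225-7693232 and the Chac1 match 193 bases before it at chr2:119351049-119351056. The Trib3 match lay after the RefSeq start, at chr2:152344039-152344046. All these distances count from RefSeq starts. By GENCODE the Atf3 gene spans chr1:191170296-191218039 and the Asns gene chr6:7675169-7693254, so the Atf3 and Asns matches lie within those genes. The Trib3 gene spans chr2:152337422-152344032 on the minus strand by GENCODE, so the Trib3 match lies before the GENCODE start. The Slc7a11, Atf3 and Fgf21 matches are shown again below in 120 bases, at chr3:50443644-50443763, chr1:191183364-191183483 and chr7:45615521-45615640, all minus strand, GRCm38.p6; no GENCODE exon of these 3 genes overlaps the stretches.
Slc7a11: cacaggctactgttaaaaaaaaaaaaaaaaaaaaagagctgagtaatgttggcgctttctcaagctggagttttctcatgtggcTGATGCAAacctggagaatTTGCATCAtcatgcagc
Atf3: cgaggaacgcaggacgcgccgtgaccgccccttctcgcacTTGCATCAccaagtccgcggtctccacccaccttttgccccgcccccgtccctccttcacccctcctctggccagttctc
Fgf21: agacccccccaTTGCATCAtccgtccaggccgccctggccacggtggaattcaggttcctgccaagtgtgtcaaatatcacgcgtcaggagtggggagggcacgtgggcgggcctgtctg

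Total estimated counts ranged from 18964942 to 21757109 over the 12 mouse libraries. Igfbp5 was scarce: it had 149 counts over the relapsed and 27 over the control tumours, and 30 over the sgIgfbp5 and 114 over the sgScr libraries. The Y-linked gene Ddx3y was at 0 in the relapsed tumours, at 27.8 to 31.5 TPM (transcript abundance corrected for length and depth) in the control tumours and at 0 in all CUUC-G libraries, while the X-inactivation RNA Xist lay at 50.2 to 60.6 TPM in relapsed and at 0.00394 to 0.0136 TPM in control tumours. In CUUC-G, Xist lay at 114 to 200 TPM with sgIgfbp5 and at 39.8 to 59.3 TPM with sgScr, a log2 fold change of 1.80 ± 0.25 (edgeR adjusted p = 0.00046). These sex-linked levels and relapse cannot be told apart in the tumour comparison, and every tumour result below moves with them; Xist moves with the CUUC-G results too, and its part in them was not tested. Between relapsed tumours and sgScr cells, 92.1% of the 13472 genes with a mean of at least 1 TPM had mean TPM within 1.5-fold, against 54.4% between relapsed and control tumours. Immune markers were near 0 in every group, with summed CPM (counts scaled to library size) of 1.75 to 2.55 in relapsed and 0.603 to 1.37 in control tumours, and 0.188 to 0.353 in sgIgfbp5 and 2.24 to 2.51 in sgScr cells; Cd3e and Cd3d had no count in any group. Of 17 urothelial markers, 9 reached 1 CPM in relapsed and 7 in control tumours, with sums of 749 to 778 CPM and 40.1 to 48.7 CPM; Krt5 and Upk3a were at 0 in every group. In CUUC-G the urothelial sums were 168 to 196 CPM with sgIgfbp5 and 804 to 887 CPM with sgScr. The 10 fibroblast markers summed to 15200 to 15600 CPM in relapsed and 34100 to 35200 CPM in control tumours, and to 11400 to 13700 CPM in sgIgfbp5 and 15000 to 16900 CPM in sgScr cells. Smooth muscle markers summed to 1290 to 1310 and 2120 to 2230 CPM in relapsed and control tumours, and to 163 to 192 and 1320 to 1510 CPM in sgIgfbp5 and sgScr cells. Endothelial sums were 151 to 163 CPM in relapsed and 1.69 to 2.61 CPM in control tumours, with Kdr means of 156 and 1.44 CPM. In CUUC-G they were 8.46 to 8.84 CPM with sgIgfbp5 and 149 to 157 CPM with sgScr, with Kdr means of 7.79 and 153 CPM. These sums differ between the groups of both comparisons, and their part in the results was not tested. The libraries called tumours held almost no immune marker counts, and the relapsed ones lay near the sgScr line in level. Whether they came from tissue or from cultured cells was not tested, and tumours is kept here only as their name.

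The response genes were lower in relapsed than in control tumours and higher in sgIgfbp5 than in sgScr cells. At relapse 37 of the 38 members fell and 1, Cebpb, rose, by edgeR's quasi-likelihood test with Benjamini-Hochberg adjustment over 14373 genes and a threshold of 0.05. Over all those genes 73.5% were called, 36.9% lower and 36.6% higher, so a call alone is common in this comparison. At least a 2-fold decrease was found for 30 members, against 12% of all genes, and the median log2 fold change was -2.22 for the members and 0 for all genes. In CUUC-G 33 members rose, 1 fell and 4 did not pass the test, where 70.8% of 14553 genes were called, 36.5% higher and 34.3% lower. At least a 2-fold increase was found for 25 members, against 14.6% of all genes, and the median was 1.74 for the members and 0.06 for all genes. The CPM of the groups did not overlap for 38 members at relapse and 36 in CUUC-G, where the same held for 75.3% and 73.9% of all genes. In these bulk libraries fewer cells of a type and less RNA per cell cannot be told apart.

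**Figure D1:**
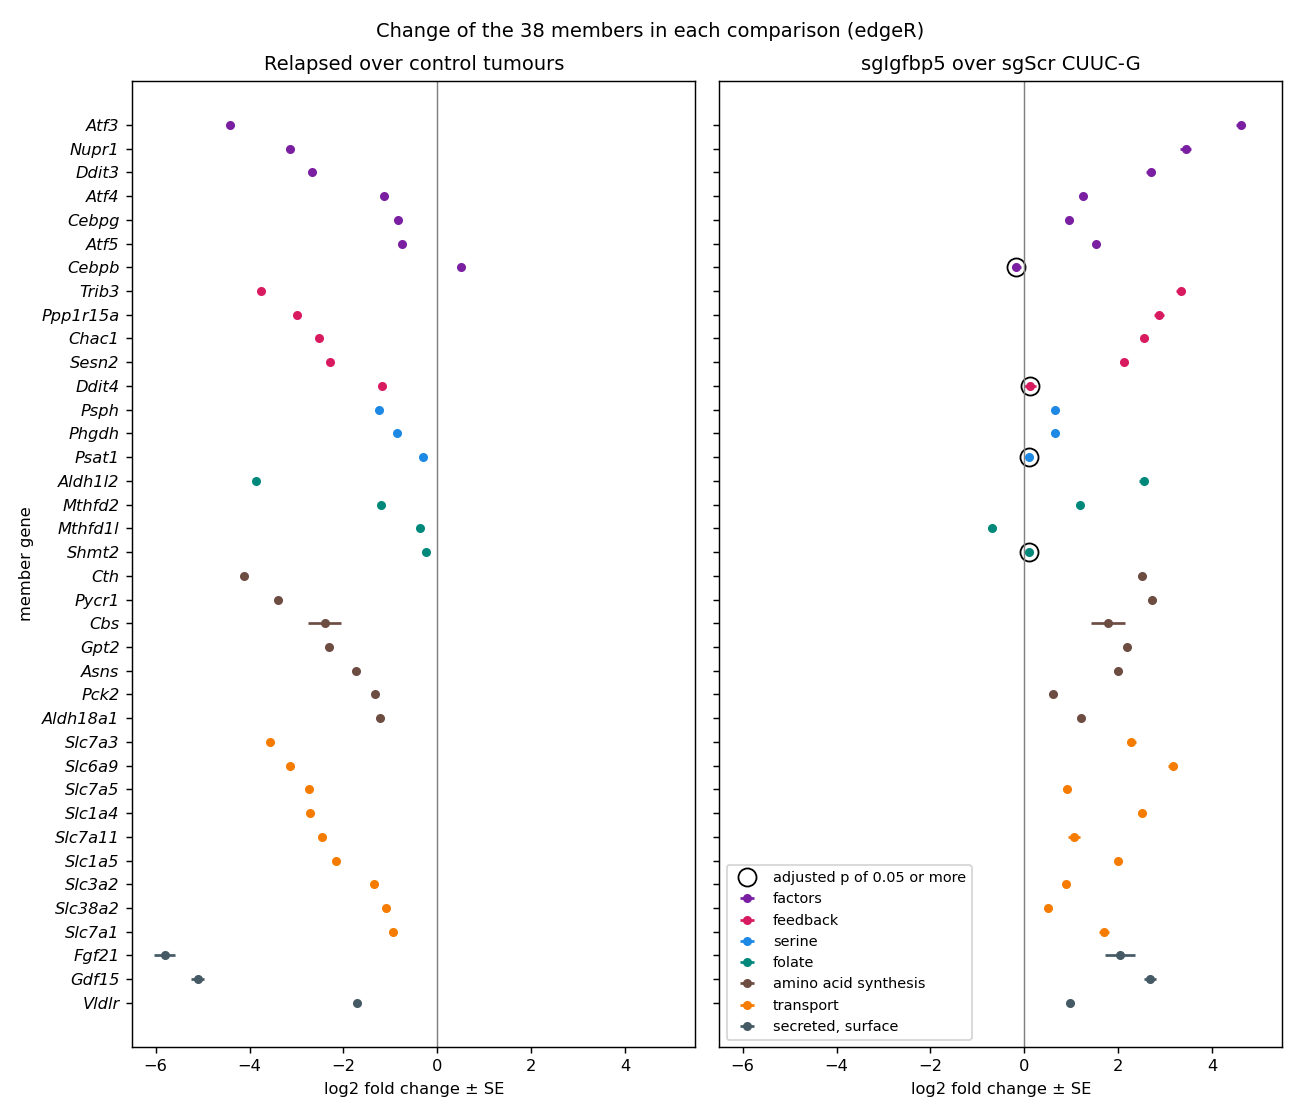
Log2 fold change of each member (points, with the standard error as bars) for relapsed over control tumours on the left and for sgIgfbp5 over sgScr CUUC-G cells on the right, coloured by role; rings mark the 4 members with an adjusted p of 0.05 or more. All members but Cebpb lie left of 0 at relapse, from -5.81 for Fgf21 to -0.24 for Shmt2, and 36 lie right of 0 in CUUC-G, up to 4.61 for Atf3.

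Atf4, the factor at the centre of the response (ENSMUSG00000042406.9, chr15:80255184-80257541, GRCm38), had 394, 399 and 366 TPM in relapsed tumours, against 936, 898 and 934 TPM in control tumours. It had 901, 941 and 901 TPM in sgIgfbp5 cells, against 367, 359 and 377 TPM in sgScr cells. The groups did not overlap in either comparison. The log2 fold change was -1.13 ± 0.03 (SE, edgeR adjusted p = 1.27e-21) at relapse and 1.25 ± 0.07 (edgeR adjusted p = 5.2e-08) in CUUC-G. At relapse 10.3% of all genes had a lower log2 fold change than Atf4, and in CUUC-G 89.5% did. Log2 fold changes were fitted on counts, while TPM corrects for transcript length, so the ratios of TPM can differ from them.

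Atf3, a repressive stress-induced relative of ATF4, changed most among the factors. It stood at 5.04, 6.66 and 8.7 TPM in relapsed tumours, against 142, 160 and 150 TPM in control tumours. The CUUC-G levels were 154, 164 and 176 TPM with sgIgfbp5, against 6.23, 6.18 and 8.67 TPM with sgScr. Both pairs of groups were far apart, with log2 fold changes of -4.41 ± 0.07 (edgeR adjusted p = 2.32e-25) at relapse and 4.61 ± 0.09 (edgeR adjusted p = 1.75e-11) in CUUC-G.

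Ddit3, which encodes CHOP, the factor that links long stress to cell death, had 116, 107 and 125 TPM in relapsed tumours, against 812, 767 and 812 TPM in control tumours. In CUUC-G it had 758, 791 and 726 TPM with sgIgfbp5, against 106, 124 and 117 TPM with sgScr. The fitted folds were close in size and opposite in sign, at -2.67 ± 0.05 and 2.69 ± 0.1 on the log2 scale (edgeR adjusted p = 2.36e-24 and 1.05e-09). The symbol has a second gene identifier in the tables, with 0 counts in every library, which was not used.

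Atf5, a factor translated under the same control as ATF4, had 297, 286 and 307 TPM in relapsed tumours, against 592, 546 and 588 TPM in control tumours. With sgIgfbp5 it had 819, 831 and 800 TPM, against 305, 278 and 270 TPM with sgScr. It fell by 0.75 ± 0.04 on the log2 scale at relapse and was 1.53 ± 0.07 higher in sgIgfbp5 cells (edgeR adjusted p = 2.23e-16 and 6.72e-09). Nupr1, a small stress-induced chromatin protein, had 35.1, 32.6 and 40.3 TPM in relapsed tumours, against 348, 334 and 377 TPM in control tumours. In sgIgfbp5 cells it had 467, 510 and 481 TPM, against 42.4, 41.2 and 48.1 TPM in sgScr cells. It ranked among the largest increases of the members in CUUC-G, at 3.44 ± 0.12 on the log2 scale, and changed by -3.15 ± 0.07 at relapse (edgeR adjusted p = 1.05e-09 and 7.18e-25).

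The C/EBP partners did not follow each other. Cebpg, which dimerises with ATF4, had 30.9, 31.3 and 28.6 TPM in relapsed tumours, against 62.5, 62.2 and 68.8 TPM in control tumours, and 83.3, 76.4 and 78.2 TPM in sgIgfbp5 cells, against 31, 30.2 and 32.7 TPM in sgScr cells. Its log2 fold changes were -0.83 ± 0.05 and 0.96 ± 0.08 (edgeR adjusted p = 1.49e-14 and 6.71e-07). Cebpb, another dimer partner, had 459, 421 and 401 TPM in relapsed tumours, against 340, 339 and 357 TPM in control tumours. It was the only member that rose at relapse, by 0.50 ± 0.05 on the log2 scale (edgeR adjusted p = 3.05e-07). In CUUC-G its groups overlapped, at 393, 408 and 364 TPM with sgIgfbp5 and 394, 436 and 456 TPM with sgScr, and its log2 fold change of -0.17 ± 0.09 did not pass the test (edgeR adjusted p = 0.113). Without replicate 2 of sgIgfbp5 or replicate 1 of sgScr, the same Cebpb value was -0.29 or -0.26 and passed it (edgeR adjusted p = 0.00957 and 0.0202).

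**Figure D2:**
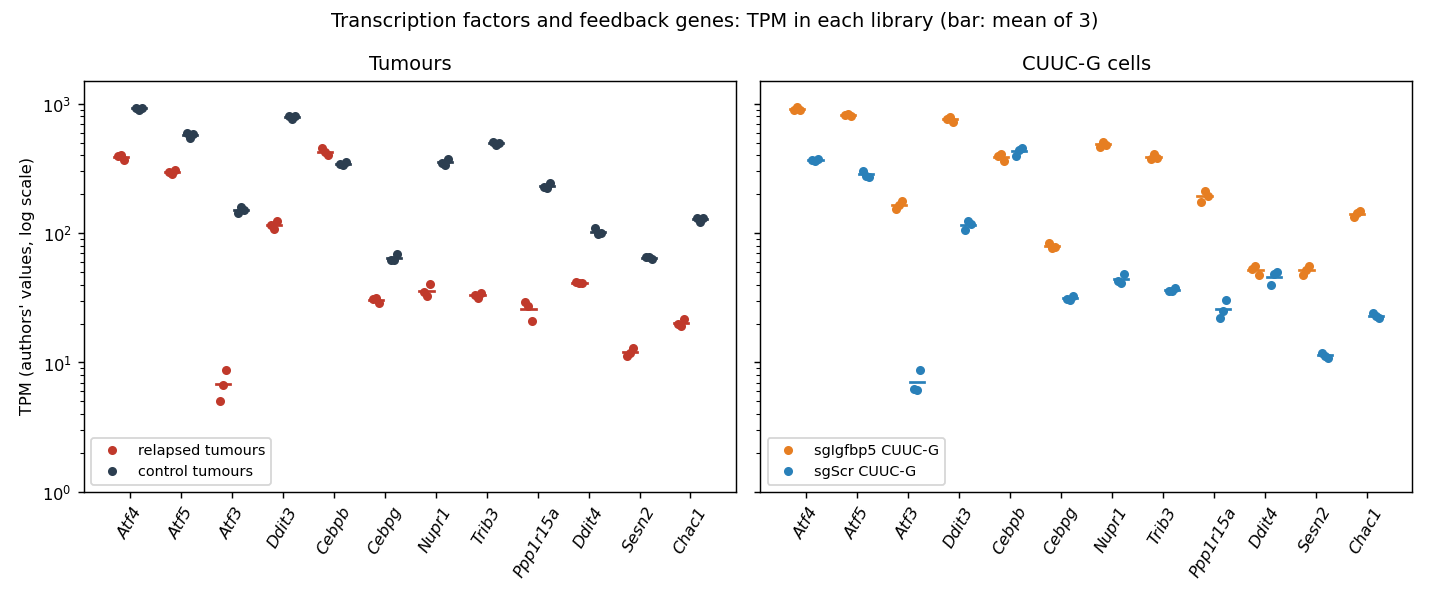
TPM on a log scale for the 7 factors and 5 feedback genes in each library (points) with the mean of 3 libraries (bars), in tumours on the left (relapsed, then control) and CUUC-G cells on the right (sgIgfbp5, then sgScr). The relapsed points lie below the control points for every gene but Cebpb, and the sgIgfbp5 points lie above the sgScr points for every gene but Cebpb and Ddit4, whose points overlap.

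All 5 feedback genes fell at relapse and 4 of them rose in sgIgfbp5 cells, where 36.9% and 36.5% of all genes did. Trib3, a pseudokinase that binds ATF4 and CHOP and dampens them, had 33.3, 31.5 and 34.3 TPM in relapsed tumours, against 507, 478 and 497 TPM in control tumours. In CUUC-G it had 374, 406 and 379 TPM with sgIgfbp5, against 35.4, 35.6 and 37.4 TPM with sgScr. The libraries of a group lay close together and the groups were far apart, with log2 fold changes of -3.76 ± 0.04 and 3.33 ± 0.09 (edgeR adjusted p = 6.94e-31 and 1.42e-10). Chac1, which breaks down glutathione, had 19.7, 19.1 and 21.5 TPM in relapsed tumours, against 132, 121 and 131 TPM in control tumours, and 133, 142 and 148 TPM in sgIgfbp5 cells, against 24, 22.8 and 22.1 TPM in sgScr cells. Its log2 fold changes were -2.53 ± 0.06 and 2.56 ± 0.08 (edgeR adjusted p = 3.49e-23 and 2.64e-10). Ppp1r15a, which encodes GADD34, the inducible subunit of the phosphatase that resets eIF2, changed by -2.99 ± 0.05 at relapse and 2.87 ± 0.11 in CUUC-G. Sesn2, an inhibitor of the growth kinase complex mTORC1 that also senses leucine, changed by -2.28 ± 0.06 and 2.12 ± 0.08.

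Ddit4, which encodes REDD1, another inhibitor of mTORC1 signalling, parted from these. It had 41.6, 41 and 40.8 TPM in relapsed tumours, against 109, 98.7 and 99.5 TPM in control tumours, a log2 fold change of -1.18 ± 0.06 (edgeR adjusted p = 8.32e-17). Its CUUC-G groups overlapped, at 52.6, 56 and 47.2 TPM with sgIgfbp5 and 39.8, 48 and 49.8 TPM with sgScr, with a log2 fold change of 0.12 ± 0.12 (edgeR adjusted p = 0.399).

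The serine and folate enzymes had the smallest median changes of the roles, at -0.86 and -0.79 on the log2 scale at relapse and 0.65 and 0.63 in CUUC-G. The 3 enzymes that make serine from a glycolytic intermediate all fell at relapse, with log2 fold changes of -1.25 to -0.30, and 2 of them rose in CUUC-G. Of all genes, 36.9% fell at relapse and 36.5% rose in CUUC-G. Phgdh, the first enzyme of that path, had 367, 361 and 365 TPM in relapsed tumours, against 732, 724 and 738 TPM in control tumours. In sgIgfbp5 cells it had 582, 638 and 589 TPM, against 367, 368 and 367 TPM in sgScr cells. The log2 fold changes of Phgdh were -0.86 ± 0.03 and 0.65 ± 0.08 (edgeR adjusted p = 7.75e-20 and 1.55e-05). Psph, the last enzyme of the path, changed by -1.25 ± 0.04 and 0.66 ± 0.08.

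Psat1, the aminotransferase between them, had 480, 467 and 489 TPM in relapsed tumours, against 633, 640 and 658 TPM in control tumours, and fell by 0.30 ± 0.03 on the log2 scale (edgeR adjusted p = 2.18e-10). In CUUC-G it had 472, 497 and 498 TPM with sgIgfbp5, against 447, 439 and 414 TPM with sgScr; the groups did not overlap, but the log2 fold change of 0.10 ± 0.06 did not pass the test (edgeR adjusted p = 0.179). Shmt2, the mitochondrial enzyme that splits serine into glycine and a folate-bound carbon, had 219, 220 and 221 TPM in relapsed tumours, against 302, 295 and 303 TPM in control tumours, and fell by 0.24 ± 0.03 (edgeR adjusted p = 5.11e-07). In CUUC-G it had 296, 306 and 293 TPM with sgIgfbp5, against 234, 233 and 234 TPM with sgScr. Its fit on counts gave a log2 fold change of 0.09 ± 0.07 (edgeR adjusted p = 0.259), while limma on log2(TPM + 1) gave 0.35 for Shmt2 and 0.17 for Psat1, both past the threshold (adjusted p = 0.000288 and 0.0179), as did scaling by library size alone, at 0.20 and 0.21.

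Mthfd2, the mitochondrial folate dehydrogenase used in many tumours, had 128, 127 and 133 TPM in relapsed tumours, against 331, 331 and 323 TPM in control tumours, and 311, 341 and 326 TPM in sgIgfbp5 cells, against 134, 140 and 142 TPM in sgScr cells. The fitted log2 fold changes were -1.21 ± 0.04 and 1.18 ± 0.07 (edgeR adjusted p = 1.11e-21 and 9.61e-08). Aldh1l2, which oxidises formyl-folate in mitochondria, changed more, by -3.86 ± 0.04 at relapse and 2.54 ± 0.09 in CUUC-G. Mthfd1l, which releases formate from mitochondria, was the only member lower in both comparisons. It had 47.4, 47.8 and 47.8 TPM in relapsed tumours, against 64.5, 68.4 and 71.8 TPM in control tumours, and 26.9, 29.4 and 31 TPM in sgIgfbp5 cells, against 47.6, 45.4 and 40.9 TPM in sgScr cells. The groups did not overlap, and the log2 fold changes were -0.37 ± 0.04 and -0.69 ± 0.08 (edgeR adjusted p = 5.87e-09 and 8.18e-06).

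The 7 other enzymes of amino acid synthesis and use all fell at least 2-fold at relapse and all rose in sgIgfbp5 cells, 6 of them at least 2-fold. Over all genes 12% fell at least 2-fold at relapse, and 36.5% rose in CUUC-G, 14.6% at least 2-fold. Asns, which makes asparagine and is the classical readout of the response, had 153, 158 and 157 TPM in relapsed tumours, against 548, 585 and 562 TPM in control tumours. In CUUC-G it had 601, 623 and 611 TPM with sgIgfbp5, against 148, 147 and 140 TPM with sgScr. No library came near the other group, and the log2 fold changes were -1.73 ± 0.03 and 1.99 ± 0.07 (edgeR adjusted p = 9.38e-26 and 7.58e-10). Cth, which makes cysteine from cystathionine, had 17.6, 16.9 and 18.5 TPM in relapsed tumours, against 331, 330 and 329 TPM in control tumours, and 103, 102 and 96.6 TPM in sgIgfbp5 cells, against 17.8, 16.3 and 16.2 TPM in sgScr cells. The Cth change was -4.11 ± 0.05 at relapse and 2.50 ± 0.08 in CUUC-G on the log2 scale (edgeR adjusted p = 3.94e-31 and 6.12e-10).

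Both proline enzymes changed: Pycr1, which closes the proline ring, by -3.39 ± 0.06 and 2.72 ± 0.09, and Aldh18a1, which starts the path from glutamate, by -1.22 ± 0.03 and 1.21 ± 0.07. Gpt2, the mitochondrial alanine aminotransferase, changed by -2.30 ± 0.04 and 2.19 ± 0.07. Pck2, mitochondrial phosphoenolpyruvate carboxykinase, changed by -1.33 ± 0.04 and 0.61 ± 0.08. Cbs, which makes cystathionine for Cth, was scarce, with 36 counts over the relapsed and 193 over the control tumours, and 107 over the sgIgfbp5 and 29 over the sgScr libraries. Its log2 fold changes, -2.40 ± 0.35 and 1.78 ± 0.37, have the largest standard errors of the 38 members.

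All 9 transporters fell at relapse, 8 at least 2-fold, and all 9 rose in sgIgfbp5 cells, 6 at least 2-fold. Over all genes 36.9% fell at relapse, 12% at least 2-fold, and 36.5% rose in CUUC-G, 14.6% at least 2-fold. Slc7a11, the light chain of the exchanger that imports cystine and exports glutamate, had 4.53, 5.16 and 3.86 TPM in relapsed tumours, against 24.8, 28.4 and 27.4 TPM in control tumours. With sgIgfbp5 it had 10.1, 7.51 and 10.5 TPM, against 5.02, 4.07 and 3.77 TPM with sgScr. The groups stood apart in both, by -2.46 ± 0.08 and 1.05 ± 0.13 on the log2 scale (edgeR adjusted p = 1.64e-12 and 3.26e-05). Slc3a2, the heavy chain that Slc7a11 and Slc7a5 share, changed by -1.34 ± 0.03 and 0.89 ± 0.07, and Slc7a5, the light chain of the leucine transporter, by -2.74 ± 0.03 and 0.90 ± 0.07.

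Slc6a9, a glycine transporter, had 13.4, 10.3 and 13 TPM in relapsed tumours, against 99.7, 115 and 101 TPM in control tumours, and 106, 126 and 136 TPM in sgIgfbp5 cells, against 12.8, 11.1 and 9.8 TPM in sgScr cells. The changes were alike in size, at -3.15 ± 0.05 and 3.16 ± 0.09 on the log2 scale (edgeR adjusted p = 5.32e-27 and 1.5e-10). The cationic amino acid carriers differed in size of change: Slc7a3 by -3.56 ± 0.05 and 2.28 ± 0.09, and Slc7a1 by -0.95 ± 0.03 and 1.70 ± 0.1. The neutral amino acid exchangers Slc1a4 and Slc1a5 changed by -2.71 ± 0.05 and -2.17 ± 0.04 at relapse and by 2.50 ± 0.08 and 1.99 ± 0.06 in CUUC-G. Slc38a2, the glutamine and alanine carrier SNAT2, changed by -1.09 ± 0.03 and 0.51 ± 0.08.

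Among secreted and surface proteins were the members with the largest decreases at relapse. Fgf21, a hormone of fasting and mitochondrial stress, had 0.74, 1.06 and 0.208 TPM in relapsed tumours, against 44.7, 40.2 and 40.7 TPM in control tumours. Its counts summed to 19 in relapsed and 1093 in control tumours, and the log2 fold change was -5.81 ± 0.23 (edgeR adjusted p = 1.39e-18), with 0.536% of all genes lower. In CUUC-G it stood at 4.63, 4.05 and 3.69 TPM with sgIgfbp5, against 1.13, 1.04 and 0.767 TPM with sgScr, which are 131 and 30 counts and a log2 fold change of 2.03 ± 0.32 (edgeR adjusted p = 0.000153).

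Gdf15, a circulating signal of cell stress that suppresses appetite, had 3.69, 3.07 and 1.68 TPM in relapsed tumours, against 101, 111 and 102 TPM in control tumours, and 23.5, 21 and 21.4 TPM in sgIgfbp5 cells, against 3.41, 3.47 and 3.23 TPM in sgScr cells. Its log2 fold changes were -5.11 ± 0.13 and 2.68 ± 0.13 (edgeR adjusted p = 9.94e-20 and 1.14e-08). Vldlr, a lipoprotein receptor, changed by -1.72 ± 0.04 and 0.98 ± 0.08.

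Over both comparisons, 33 of the 38 members, or 86.8%, were lower at relapse and higher in sgIgfbp5 cells, a pattern held by 23.0% of the 13904 genes tested in both. The exceptions were Cebpb, Ddit4, Psat1, Shmt2 and Mthfd1l; 5.02% of genes were lower in both, as Mthfd1l was. No member was higher at relapse and lower in sgIgfbp5 cells, as 24.7% of genes were, and none was higher in both, as 4.49% were. The comparisons share no library, but relapsed tumours and sgScr cells had 92.1% of genes within 1.5-fold in mean TPM. The former are the numerator of the tumour comparison and the latter the denominator of the CUUC-G comparison. Opposite signs in the 2 comparisons are thus not independent of each other, for the members or for all genes. Across genes, the log2 fold changes of the 38 members in the 2 comparisons correlated at Pearson r = -0.79 and Spearman rho = -0.83, and those of all 13904 genes at -0.67 and -0.61. Genes are not independent replicates, and the points share library and depth within each comparison.

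**Figure D3:**
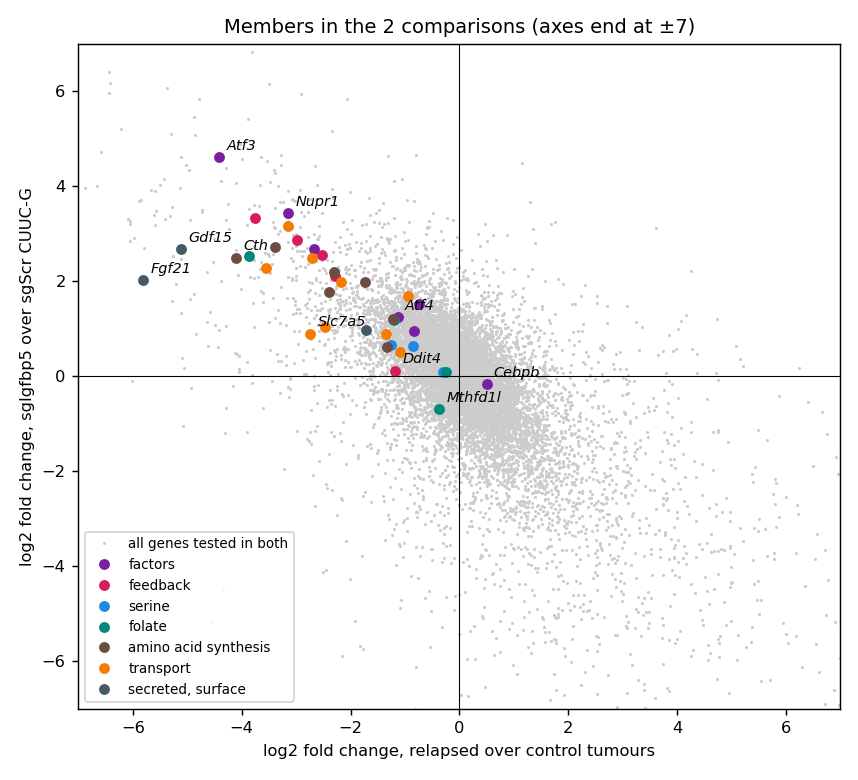
Log2 fold change of relapsed over control tumours (x axis) against that of sgIgfbp5 over sgScr CUUC-G cells (y axis), with the members coloured by role over all genes tested in both (grey); genes beyond 7 on either axis are not drawn. Of the members, 33 are called at the upper left, Mthfd1l lies in the lower left and Cebpb in the lower right.

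The levels were also set side by side across the tumour and CUUC-G tables, which were normalised separately, so no test was made. All 38 members had mean TPM within 1.5-fold between relapsed tumours and sgScr cells, where 92.1% of all genes did. The widest gap was that of Fgf21, at 0.669 TPM in relapsed tumours and 0.979 TPM in sgScr cells. Between control tumours and sgIgfbp5 cells, 24 of the 38 were within 1.5-fold, and 55.4% of genes were. There Atf4 stood at 923 TPM in control tumours and 914 TPM in sgIgfbp5 cells, Ddit3 at 797 and 758 TPM, and Mthfd2 at 328 and 326 TPM. The ratio of control tumours to sgIgfbp5 cells was 10.2 for Fgf21, 4.75 for Gdf15, 3.85 for Slc7a5, 3.28 for Cth and 2.87 for Slc7a11. It was 0.642 for Slc7a1 and 0.704 for Atf5, which were higher in sgIgfbp5 cells than in control tumours.

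**Figure D4:**
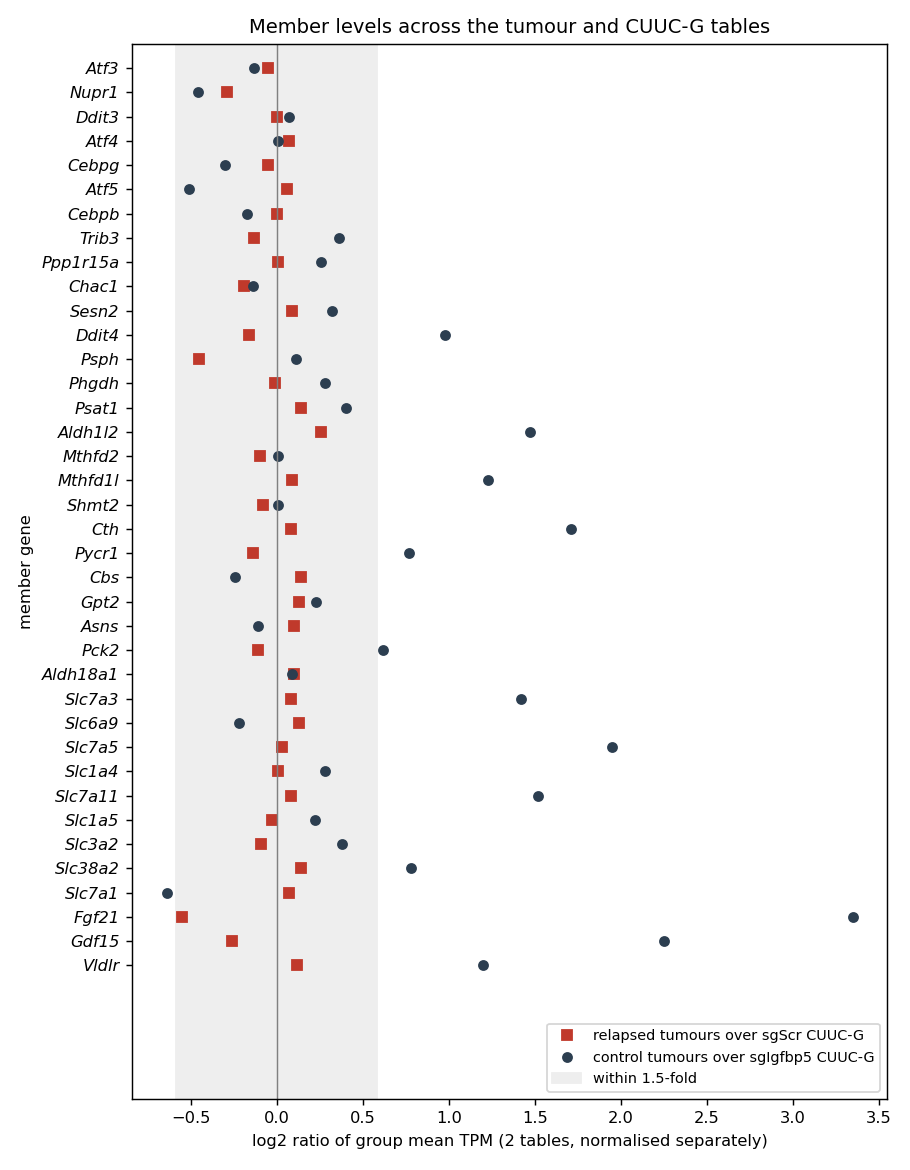
Log2 ratio of group mean TPM for each member, relapsed tumours over sgScr cells (squares) and control tumours over sgIgfbp5 cells (circles), with the range of 1.5-fold shaded. All 38 squares lie in the shaded range, while 14 circles lie outside it, the farthest being Fgf21 at 3.35.

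Upstream of ATF4, the eIF2 kinases showed no shared direction. At relapse Eif2ak1, the haem-regulated kinase HRI, was 0.47 ± 0.05 higher on the log2 scale and Eif2ak2, the double-stranded RNA kinase PKR, 0.46 ± 0.08 higher (edgeR adjusted p = 3e-09 and 3.68e-05). Eif2ak3, the endoplasmic reticulum kinase PERK, had 0.20 ± 0.08 (edgeR adjusted p = 0.0226), but 9.88 TPM in relapsed and 9.81 TPM in control tumours, and missed the threshold with limma on log2(TPM + 1) (adjusted p = 0.929), without a filter and without relapsed replicate 2, control replicate 2 or control replicate 3. Eif2ak4, the amino acid sensor GCN2, had -0.08 ± 0.07 (edgeR adjusted p = 0.299). In CUUC-G Eif2ak2 was 1.34 ± 0.16 lower with sgIgfbp5 (edgeR adjusted p = 3.7e-05). Eif2ak4 had 0.31 ± 0.11 (edgeR adjusted p = 0.0246), a call lost without sgIgfbp5 replicate 3, sgScr replicate 2 or sgScr replicate 3 (edgeR adjusted p = 0.197, 0.0922 and 0.0781), with DESeq2 and with limma. There Eif2ak1 had 0.13 ± 0.07 and Eif2ak3 0.18 ± 0.09, and neither passed the test (edgeR adjusted p = 0.116 and 0.0814). Scaled by library size alone these were 0.24 and 0.30 and both passed it (edgeR adjusted p = 0.00955 and 0.012), and Eif2ak3 also passed without sgScr replicate 1, at 0.23 (edgeR adjusted p = 0.0491). Dele1, which carries a mitochondrial stress signal to HRI, changed by -0.68 ± 0.07 at relapse and 1.30 ± 0.08 in CUUC-G.

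Of 10 eIF2 and eIF2B subunits and phosphatase genes, 5 were higher and 4 lower at relapse, and 2 higher and 5 lower in CUUC-G. Over all genes 36.6% were higher and 36.9% lower at relapse, and 36.5% higher and 34.3% lower in CUUC-G. Ppp1r15b, the constitutive phosphatase subunit, changed by -0.93 ± 0.04 and 1.23 ± 0.07, the directions of its inducible counterpart Ppp1r15a. Eif2s3x, the X-linked copy of the eIF2 gamma subunit, had 283 TPM in relapsed and 141 TPM in control tumours, and its near-identical Y-linked copy Eif2s3y had 0 and 52.1 TPM. Their sum was 283 TPM in relapsed and 193 TPM in control tumours. Reads of such copies can be assigned to either, so the split between them is uncertain.

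Genes outside the members were read by list, with no test between lists. Every list count is to be set beside the shares of all genes. These were 36.6% higher and 36.9% lower at relapse, and 36.5% higher and 34.3% lower in CUUC-G. A count near these shares is not read as a response of its list. Of 20 cytosolic aminoacyl-tRNA synthetases, which charge tRNAs, 3 were higher and 15 lower at relapse, and 15 were higher and 5 lower in CUUC-G (15 and 3 with library size alone), with medians of -0.72 and 0.72. Lars, which charges leucine, had 78.7 TPM in relapsed and 272 TPM in control tumours (log2 fold change -1.76 ± 0.03), and 235 TPM in sgIgfbp5 and 71.6 TPM in sgScr cells (1.65 ± 0.07). Nars, for asparagine, changed by -1.30 ± 0.03 and 1.32 ± 0.07. Of the 17 mitochondrial synthetases, 6 were higher and 7 lower at relapse, or 2 and 7 with limma on log2(TPM + 1), and 8 were higher and 3 lower in CUUC-G. Lars2 had 664 TPM in sgIgfbp5 and 126 TPM in sgScr cells, a log2 fold change of 2.33 ± 0.07.

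Of 23 other reported ATF4 targets, 3 were higher and 19 lower at relapse (1 and 19 with limma on log2(TPM + 1)), and 17 higher and 2 lower in CUUC-G (16 and 1 with limma), with medians of -0.64 and 0.93. Of all genes, 36.9% were lower at relapse and 36.5% higher in CUUC-G. Soat2, which esterifies cholesterol, had 0.838 TPM in relapsed and 47.6 TPM in control tumours, and 14.4 TPM in sgIgfbp5 and 0.917 TPM in sgScr cells, log2 fold changes of -5.67 ± 0.11 and 3.91 ± 0.16. Ero1a, an oxidase of the endoplasmic reticulum, fell by 2.10 ± 0.03 on the log2 scale at relapse, and the autophagy receptor Sqstm1 by 1.16 ± 0.03. Bbc3, the cell death gene PUMA, was 2.24 ± 0.12 higher in sgIgfbp5 cells and Gabarapl1, of autophagy, 1.32 ± 0.07 higher. The list also held a gene that changed far in the opposite directions, Avpr1a, a vasopressin receptor, named after its values were seen. It had 2 TPM in relapsed and 0.0928 TPM in control tumours, and 0.0476 TPM in sgIgfbp5 and 1.72 TPM in sgScr cells, log2 fold changes of 4.46 ± 0.46 and -5.14 ± 0.49 (edgeR adjusted p = 1.77e-09 and 2.81e-06).

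The next list pools targets of ATF6 and of XBP1, which belong to separate branches of the unfolded protein response beside PERK. It had 8 of 19 genes higher and 6 lower at relapse, or 7 higher and 10 lower with limma on log2(TPM + 1), and 4 higher and 12 lower in CUUC-G. Over all genes 36.6% were higher and 36.9% lower at relapse, and 36.5% higher and 34.3% lower in CUUC-G. Hspa5, the chaperone BiP, fell to 662 TPM in relapsed tumours, against 1780 TPM in control tumours (log2 fold change -1.30 ± 0.03). Herpud1, of protein disposal from the endoplasmic reticulum, changed as the members did, by -1.67 ± 0.04 and 1.33 ± 0.07. Calr, the chaperone calreticulin, went the other way, at 1.25 ± 0.03 and -1.24 ± 0.07. Of 11 targets of NRF2, the factor of the oxidative stress response, 7 were higher and 3 lower at relapse and none higher and 9 lower in CUUC-G, with medians of 0.49 and -1.51. Gsr, glutathione reductase, had 142 TPM in relapsed and 29.6 TPM in control tumours, and 42.4 TPM in sgIgfbp5 and 134 TPM in sgScr cells.

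Genes next to the members in the same metabolism were mixed. The shares of all genes higher and lower were 36.6% and 36.9% at relapse, and 36.5% and 34.3% in CUUC-G. Of 10 serine and folate neighbours tested, 5 were higher and 4 lower at relapse (2 and 4 with limma on log2(TPM + 1)) and 2 higher and 6 lower in CUUC-G (1 and 6 with limma); Tyms, which makes thymidylate, changed by 1.18 ± 0.06 and -1.83 ± 0.07. Of 13 other amino acid carriers tested, 7 were higher and 4 lower at relapse (3 and 3 with limma) and 4 higher and 6 lower in CUUC-G (2 and 3 with limma). C/EBP and bZIP partners outside the members had 3 higher and 9 lower of 15 tested at relapse and 7 higher and 3 lower of 14 tested in CUUC-G (7 and 1 with limma). Cebpd had 5.28 TPM in sgIgfbp5 and 41.7 TPM in sgScr cells, a log2 fold change of -3.08 ± 0.1. The medians of the eIF2 list, the serine and folate list and the carrier list at relapse, and of the carrier list in CUUC-G, changed sign under 1 or more of the alternatives, and no direction is given for them.

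**Figure D5:**
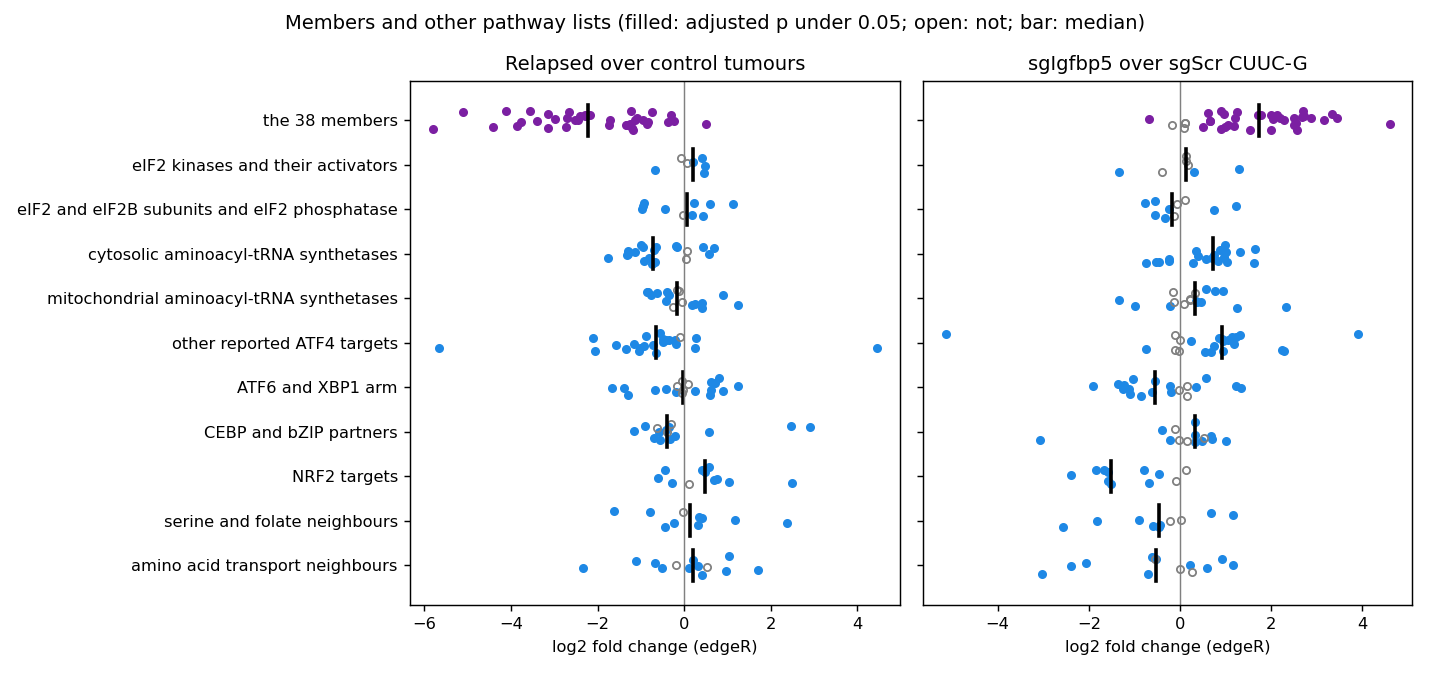
Log2 fold change of each tested gene of the members (purple) and of 10 other lists (blue), for relapsed over control tumours on the left and sgIgfbp5 over sgScr cells on the right; filled points passed the adjusted threshold of 0.05, open points did not, and bars are medians. The members' medians lie at -2.22 and 1.74, those of the cytosolic synthetases at -0.72 and 0.72, and those of the NRF2 targets at 0.49 and -1.51.

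The members' changes were also read against the promoter motif shown above, as a description without a test. The 11 members with a match had a median log2 fold change of -2.71 at relapse (range -5.81 to -1.33), and the 22 with a window but no match had -1.19 (range -5.11 to 0.50). In CUUC-G the medians were 2.50 (range 0.61 to 4.61) and 1.19 (range -0.69 to 3.16). The ranges overlapped, and Gdf15, Ddit3, Ppp1r15a, Slc6a9, Gpt2 and Sesn2 changed at least 4-fold in both comparisons with no match in their windows. Slc7a3, Slc1a5, Aldh1l2, Slc7a5 and Cth had no window and are in neither group. They changed by -3.56, -2.17, -3.86, -2.74 and -4.11 at relapse and by 2.28, 1.99, 2.54, 0.90 and 2.50 in CUUC-G, so they could shift either median.

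The tumour table also gave transcripts, whose shares Salmon estimates, so they are described without a test. For 24 of the 38 members the same leading transcript held over 80% of the gene's TPM in both groups, and the median of each member's largest difference in share was 3.67 percentage points. A share moved by over 10 points in 4 members. The leading Gdf15 transcript held 94.8% in relapsed and 81.4% in control tumours, and the leading Slc7a3 transcript 89.6% and 78.5%. A short coding transcript of Cebpg, of 914 bases, held a mean of 15.0% in relapsed and 26.3% in control tumours. Its groups met, at 14.7%, 9.62% and 20.6% in relapsed and 28.9%, 29.4% and 20.6% in control libraries. The fourth, Cbs, was too scarce to read, with no TPM for its leading transcript in relapsed replicate 3. The leading Atf4 transcript held 96.7% in relapsed and 99.1% in control tumours. The leading Pck2 transcript was a retained-intron form, with 38.6% in relapsed and 34.8% in control tumours. Retained-intron transcripts of Slc1a5 together held 48.7% and 44.3%. The gene sums of Pck2 and Slc1a5 thus include much RNA not annotated as coding.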

How the data were processed

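RNA selected by poly(A) was sequenced from 18 libraries with a stranded kit per the labels' protocols, and Salmon (version not given) is the tool named in the submitters' processing notes. The builds GRCh38 (hg38) and GRCm38 (mm10) are named without a role. The authors deposited estimated counts and TPM; the estimated counts of the tumours, given per transcript, were summed here to genes, and the CUUC-G table gave whole numbers per gene. All were rounded. The mI columns were read as sgIgfbp5 because the labels mark the IGFBP5-targeted human samples with hI. No table column was left unmatched.

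The 2 comparisons were fitted separately with edgeR 4.0.16 (R 4.3.3), quasi-likelihood, robust, TMM scaling, filterByExpr, two-sided, with Benjamini-Hochberg adjustment over all genes and a threshold of 0.05. The CUUC-G counts of a gene are rounded estimates. SE is the absolute log2 fold change over the square root of F. CPM used TMM-scaled library sizes. No pair of replicates agreed within sampling noise. Precision is limited by the depth given above and by 3 libraries a group.

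The members and lists were chosen with earlier results of these data known. Given with values per library were Atf4, Atf5, Atf3, Ddit3, Trib3, Chac1, Cebpb, Cebpg, Asns, Psat1, Phgdh, Shmt2, Mthfd2, Slc7a11 and the 4 largest increases and decreases among called members whose mean log2 CPM was 2 or more; Ddit4 was added after its values were seen. Up to 3 genes per list and comparison, by p, and the 4 eIF2 kinases were named. Alternatives were RLE and library size scaling, DESeq2 1.42.0, other filters, limma 3.58.1 on log2 TPM, a replicate block, a 2-fold limit and each library left out. Gene positions are from GENCODE M21 and promoters from RefSeq, both on GRCm38; the authors' annotation release is not given in the sources used here.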

Additional observations from a re-analysis of the deposited data

How the results depend on the processing

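Of 76 member values, 72 kept their direction and their side of the threshold under all 15 alternatives; the others were Cebpb, Ddit4, Psat1 and Shmt2 in CUUC-G. The Ddit4 log2 fold change there was -0.02 without sgIgfbp5 replicate 2 and 0 without sgScr replicate 1, and that of Shmt2 was -0.01 without sgIgfbp5 replicate 2; the cause was not tested. With each library left out, these ranged from -0.02 to 0.20 for Ddit4 and from -0.01 to 0.11 for Shmt2. Likewise the members lower in CUUC-G numbered 1 to 2, being 2 without sgIgfbp5 replicate 2 and without sgScr replicate 1. With a limit of 2-fold, 0 members were higher at relapse and 0 lower in CUUC-G, and of the other list genes 12 were higher and 20 lower at relapse, 32 in all, against 51, 72 and 123; in CUUC-G 22 were higher and 22 lower, 44 in all, against 61, 52 and 113. Limma on log2(TPM + 1) or log2(TPM + 0.1) called 33 list genes higher at relapse, and 32 without a filter. The median of all genes was -0.12 and -0.13 in those filtered limma fits at relapse and 0.17 in CUUC-G with library size alone, while the members' median ranged from -2.26 to -2.07 and from 1.45 to 1.89 over the alternatives. Same-numbered libraries did not deviate together (correlations of 0.01 for all 3 numbers in tumours and -0.08 to 0.09 in CUUC-G). No pairing by number was seen, but such correlations cannot show that the samples were unpaired. A replicate block called 38 members at relapse and 34 in CUUC-G, and 122 and 109 list genes. Over all genes it called 5208 higher and 5264 lower of 14373 at relapse. In CUUC-G it called 5155 higher and 4882 lower of 14553. Depth limits Fgf21 and Cbs, which had 19 and 29 counts in their lowest groups.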
